A study of Homo sapiens with 6 samples.

Results

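The 8 genes described here regulate the sterol regulatory element-binding proteins (SREBPs) or handle sterols and related lipids: SREBF1, SREBF2, SCAP, INSIG1, INSIG2, STARD4, LPIN1 and TMEM97. They were chosen by gene symbol, 8 of the 58735 genes in the deposited expression table, and none of the 8 encodes a lipoprotein receptor. RNA was sequenced from HEY cells, a human ovarian cancer line kept in DMEM with fetal bovine serum, after transfection with the empty vector (Vector, 3 libraries) or with the plasmid for overexpression of CSGALNACT2 (oeCSGALNACT2, 3 libraries). The plasmid was pLVX-IRES-Puro carrying full-length human CSGALNACT2, a chondroitin sulfate N-acetylgalactosaminyltransferase, and the study describes the cells both as transfected and as a stable, puromycin-selected line. The titles of the oeCSGALNACT2 samples name CSGALNACT1, whereas their descriptions and the study name CSGALNACT2. The labels do not say whether each library was made from its own culture, and the p-values below therefore rest on a spread that may be technical.

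SREBPs are made as membrane proteins of the endoplasmic reticulum and are held there, bound to SCAP, by the INSIG proteins while sterols are plentiful. When sterols run low, SCAP carries the SREBP to the Golgi apparatus, where the proteases MBTPS1 and MBTPS2 release its transcription factor domain, which enters the nucleus and turns on genes of cholesterol and fatty acid synthesis. INSIG1 is itself an SREBP target, so the pathway feeds back on itself, and STARD4, TMEM97 and LPIN1 are also known as SREBP targets in other human cells.

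The level of CSGALNACT2 (chr10:43138486-43185308 on GRCh38) was 15.3, 8.18 and 8.12 FPKM in Vector replicates 1, 2 and 3 and 535, 453 and 409 FPKM in oeCSGALNACT2 replicates 1, 2 and 3. FPKM are reads scaled by gene length and library size but not for GC content. Levels of different genes are therefore compared below as a description only. Libraries held 15628834 to 18186682 reads, and mitochondrial genes took 2.77% to 3.61% of the reads of Vector and 4.604% to 4.82% of those of oeCSGALNACT2 libraries, whose part in the results below was not tested. Of the markers fixed for the labelled cell type, KRT8, KRT18, PAX8, VIM and FN1 had at least 23.7 FPKM and KRT7 at least 20.96 FPKM in every library, EPCAM did not exceed 1.23 FPKM and MUC16 was at or near 0. The leukocyte marker PTPRC and the endothelial marker PECAM1 did not exceed 0.236 FPKM, and of the fibroblast markers PDGFRB did not exceed 0.521 FPKM and COL1A1 had 1.68 to 4.97 FPKM. Some markers moved with the group, as KRT8 had 56.8 to 95.5 FPKM in Vector and 132 to 233 FPKM in oeCSGALNACT2 libraries, KRT18 72.8 to 127 and 147 to 216 FPKM, and WT1 1.02 to 1.28 and 1.67 to 2.11 FPKM. PTPRC and PECAM1, near 0 throughout, were lower in every oeCSGALNACT2 than in every Vector library, and the part of these markers in the results below was not tested.

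Of the 8 genes, INSIG1 and TMEM97 were each 2.20-fold higher in mean FPKM in oeCSGALNACT2 than in Vector cells, and all 3 oeCSGALNACT2 libraries lay above all 3 Vector libraries for both. In bulk RNA, a change in the share of cells and a change in RNA per cell cannot be told apart. INSIG2, the transcription factor genes SREBF1 and SREBF2, the escort gene SCAP and STARD4 differed by less than the spread between libraries, and their groups overlapped. Between libraries of the same number, INSIG2 was lower in oeCSGALNACT2 cells in every comparison, and SCAP and LPIN1 were higher in every comparison. The share of all tested genes that keep a single direction in this way was not counted. LPIN1 differed by more than the SD of its Vector libraries, but its groups overlapped and it did not pass in any fit that was run. All 8 genes passed the filter of a mean of at least 1 FPKM. In limma on log2(FPKM + 1), with Benjamini-Hochberg adjustment across 11479 genes, 0 of the 8 genes passed an adjusted p of 0.05, where 1.35% of all tested genes did. INSIG1 and TMEM97 were the 2 genes at an unadjusted p under 0.05 in limma, both higher, against 7.8% of tested genes that were higher at that p. All oeCSGALNACT2 libraries lay above all Vector libraries in 11.2% of the tested genes. In limma with the replicate number as a block, 2 of the 8 genes rose (21.2% of tested genes rose) and 1 fell (22.5% of tested genes fell). On whole reads recovered from the FPKM values, 0 of the 8 passed in edgeR, where 0.971% of 14309 genes did. The same 2 genes rose in DESeq2, where 1.11% of 28102 genes rose. That set holds every gene with any read and is thus wider than the 11479 genes of limma. Any gene that DESeq2 left without an adjusted p counts in it as not passing, which can only lower this share. With each library's GC trend removed, the same 2 rose in limma (11.9% of tested genes rose). Over the 8 genes the median log2 fold change was 0.11, beside a median of -0.01 over all tested genes. The signs of SREBF1, SREBF2, SCAP and STARD4 changed in some of the alternative fits.

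**Figure D1:**
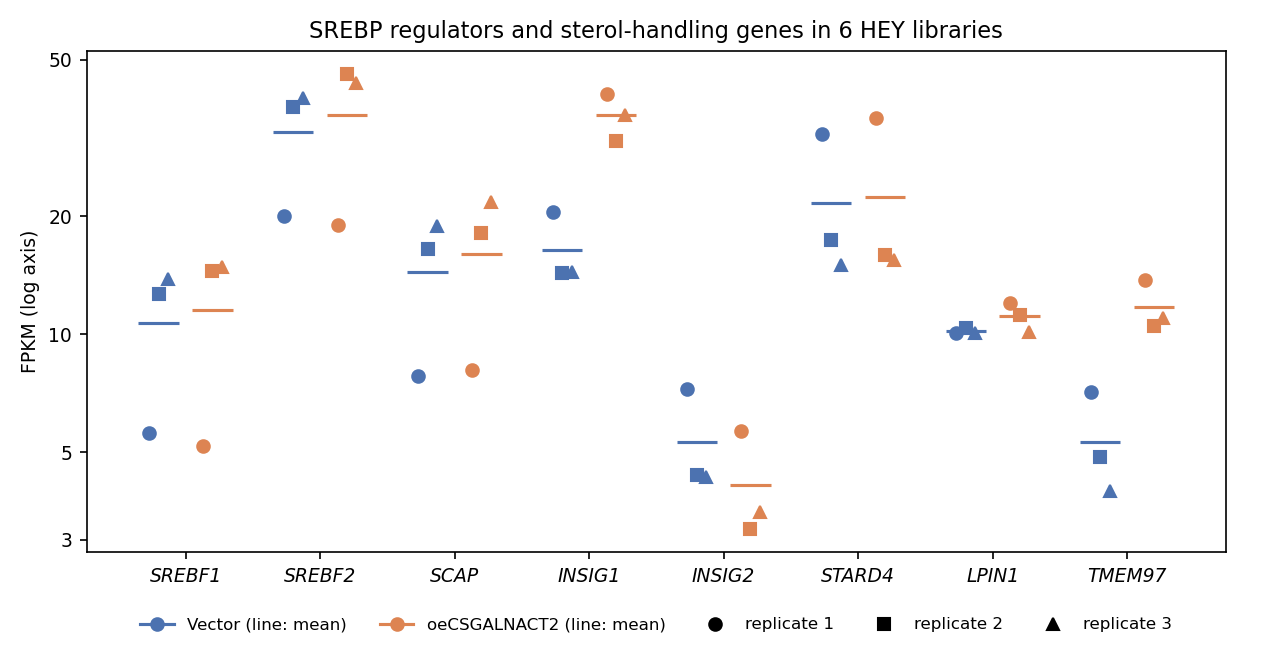
FPKM (log axis) of the 8 genes in each of the 6 HEY libraries, with Vector in blue, oeCSGALNACT2 in orange, a symbol for each replicate number and a line at the group mean. INSIG1 and TMEM97 are the 2 genes whose groups do not overlap, and in both groups replicate 1 is the lowest library for SREBF1, SREBF2 and SCAP and the highest for INSIG1, INSIG2, STARD4 and TMEM97.

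In both groups replicate 1 was unlike the other libraries, and the 8 genes were split by it. In log2(FPKM + 1), replicate 1 lay below the mean of replicates 2 and 3 by 1.10 in Vector and 1.34 in oeCSGALNACT2 cells for SREBF1, whose longest transcript has 62.8% GC. STARD4, with 34.2% GC, lay above that mean by 0.96 in Vector and 1.14 in oeCSGALNACT2 cells. LPIN1, with 47.5% GC, differed by -0.02 in Vector and 0.16 in oeCSGALNACT2 cells. The 3 genes richest in GC were thus low and the 2 poorest in GC high in replicate 1, but INSIG1 and TMEM97, with a middling 46.0% and 45.8% GC, were high in it as well. INSIG1 lay above the mean of replicates 2 and 3 by 0.49 in Vector and 0.27 in oeCSGALNACT2 cells, and TMEM97 by 0.59 and 0.32. Over 11476 tested genes the same difference had a Pearson's r with GC of -0.798 in Vector and -0.757 in oeCSGALNACT2 cells, across genes of the same 6 libraries, which are not independent replicates. What set replicate 1 apart was not tested.

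**Figure D2:**
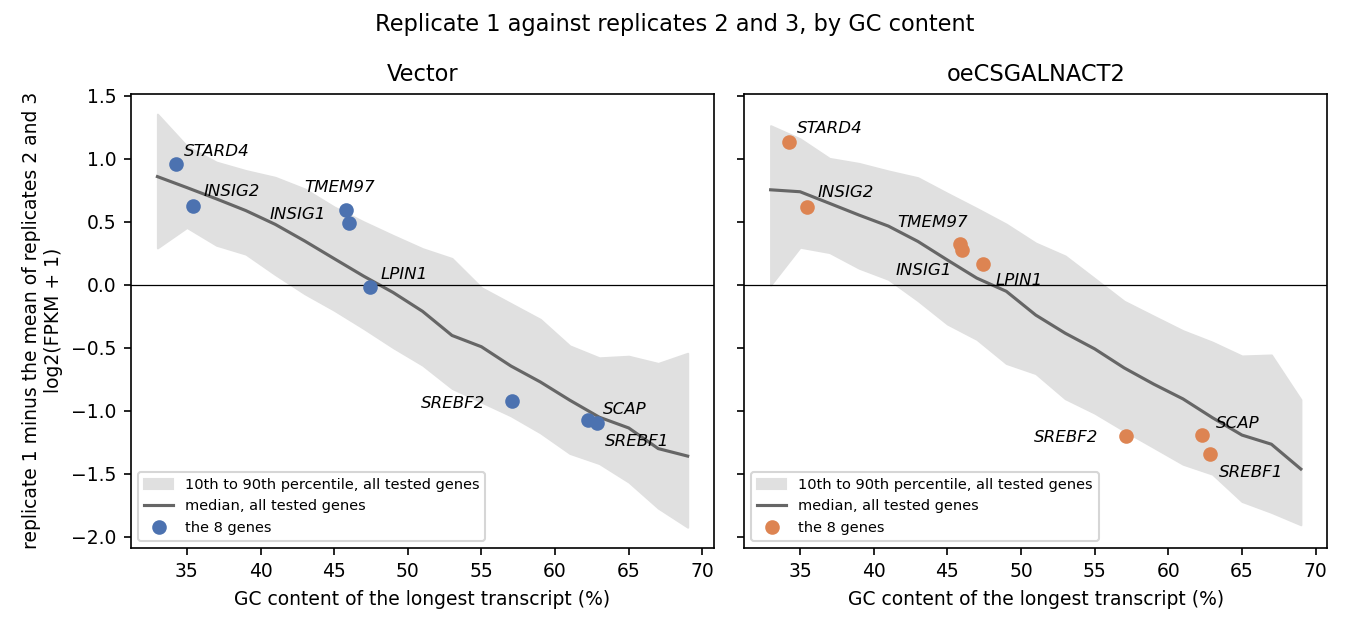
Difference in log2(FPKM + 1) between replicate 1 and the mean of replicates 2 and 3 (vertical axis) against the GC content of the longest transcript in percent (horizontal axis), for Vector (left) and oeCSGALNACT2 cells (right). Points are the 8 genes, the line is the median and the grey band the 10th to 90th percentile of all tested genes in bins of GC. SREBF1, SREBF2 and SCAP lie between -0.93 and -1.34, and STARD4 lies at 0.96 and 1.14.

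Over all 3 libraries per group, the 2 transcription factor genes showed no difference beyond the spread between libraries. SREBF1 (ENSG00000072310, chr17:17810399-17837002 on GRCh38, minus strand), which encodes the SREBP1 proteins that favour genes of fatty acid synthesis, had 5.61, 12.6 and 13.8 FPKM in Vector replicates 1, 2 and 3 and 5.18, 14.5 and 14.8 FPKM in oeCSGALNACT2 replicates 1, 2 and 3. The groups overlapped, and replicate 1 was the lowest library of each. Means were 10.7 ± 4.42 FPKM in Vector and 11.5 ± 5.49 FPKM in oeCSGALNACT2 cells (SD, n = 3 libraries), and the log2 fold change from limma was 0.06 (SE 0.48, adjusted p = 0.971). The 95% interval of the fold was 0.472 to 2.31 and narrowed to 0.909 to 1.20 with the replicate number as a block (adjusted p = 0.551 from limma). Between libraries of the same number, oeCSGALNACT2 was 0.923, 1.15 and 1.08 times Vector in replicates 1, 2 and 3. The table counts whole genes, so the isoforms SREBP1a and SREBP1c, which start at different promoters, could not be told apart. SREBF1 shares 1055 bases with RAI1 on the other strand (2.03 to 12.03 FPKM), and whether the counting used strand is not given in the sources used here.

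SREBF2 (ENSG00000198911, chr22:41833079-41907308, plus strand) encodes SREBP2, the form that favours genes of cholesterol synthesis. It had 20.04, 38.0 and 39.99 FPKM in Vector replicates 1, 2 and 3 and 18.9, 46.1 and 43.7 FPKM in oeCSGALNACT2 replicates 1, 2 and 3, which made it the most highly expressed of the 8 genes by mean in both groups. Replicates 2 and 3 of oeCSGALNACT2 lay above every Vector library and replicate 1 below every one, so the groups overlapped. Its log2 fold change came to 0.11 (SE 0.42, limma adjusted p = 0.937), and the fold with the block had an interval of 0.933 to 1.24 (adjusted p = 0.334 from limma). On replicates 2 and 3 alone the log2 fold change of SREBF2 was 0.20, with an interval of the fold of 1.02 to 1.30 (adjusted p = 0.0692 from limma). Within a library SREBF2 was 2.90 to 3.57 times SREBF1 in Vector and 2.95 to 3.66 times SREBF1 in oeCSGALNACT2 cells. This ratio overlapped between the groups (exact permutation test on the log2 ratio, two-sided, p = 0.6, n = 3 against 3). SREBF2 shares 1587 bases with the antisense gene SREBF2-AS1 (1.24 to 2.45 FPKM), and the microRNA gene MIR33A within it was at 0 in every library.

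SCAP (ENSG00000114650, chr3:47413694-47477126, minus strand) encodes the sterol-sensing escort of the SREBPs. It had 7.84, 16.4 and 18.9 FPKM in Vector replicates 1, 2 and 3 and 8.12, 18.1 and 21.7 FPKM in oeCSGALNACT2 replicates 1, 2 and 3. Each oeCSGALNACT2 library was above the Vector library of its number, by 1.03, 1.10 and 1.15 times, but the groups overlapped widely. By limma the log2 fold change of SCAP was 0.12 (SE 0.45, adjusted p = 0.932), and with the block the fold had an interval of 0.974 to 1.22 (adjusted p = 0.174 from limma). The ratio of SCAP to SREBF2 within a library was 0.391 to 0.472 in Vector and 0.392 to 0.497 in oeCSGALNACT2 cells.

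The 2 INSIG genes, whose proteins hold the SCAP-SREBP complex in the endoplasmic reticulum, had fold changes of opposite sign. INSIG1 (ENSG00000186480, chr7:155297776-155310235, plus strand) had 20.5, 14.3 and 14.4 FPKM in Vector replicates 1, 2 and 3 and 40.8, 31.1 and 36.3 FPKM in oeCSGALNACT2 replicates 1, 2 and 3. These values rest on 888 to 1228 reads in Vector and 1934 to 2426 reads in oeCSGALNACT2 libraries, and no other annotated gene overlaps it. The lowest oeCSGALNACT2 library was above the highest Vector library. A two-sided exact permutation test of mean FPKM gave p = 0.1, and it cannot go lower with 3 against 3. Means were 16.4 ± 3.54 and 36.1 ± 4.85 FPKM (SD, n = 3 libraries), and between libraries of the same number the ratio was 2.00, 2.18 and 2.52 in replicates 1, 2 and 3. By limma the log2 fold change of INSIG1 was 1.10 (SE 0.21, adjusted p = 0.0627), with an interval of the fold of 1.52 to 3.04. INSIG1 thus missed the threshold in limma, and it also missed it in edgeR (adjusted p = 0.0652). INSIG1 rose in limma with the replicate number as a block (adjusted p = 0.000871), in limma on replicates 2 and 3 alone (log2 fold change 1.17, adjusted p = 0.00118), in DESeq2 (adjusted p = 0.00420) and in limma with the GC trend removed (log2 fold change 1.13, adjusted p = 0.00248). Its log2 fold change was higher than that of 98.4% of the tested genes.

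INSIG2 (ENSG00000125629, chr2:118088452-118110997, plus strand), the relative that is not known as an SREBP target, was the lowest of the 8 genes by mean in both groups. It had 7.23, 4.39 and 4.32 FPKM in Vector replicates 1, 2 and 3 and 5.66, 3.18 and 3.53 FPKM in oeCSGALNACT2 replicates 1, 2 and 3, from 214 to 470 reads. The groups overlapped because replicate 1 was the highest library of each, and between libraries of the same number the ratio was 0.782, 0.725 and 0.817. By limma the log2 fold change of INSIG2 was -0.30 (SE 0.27, adjusted p = 0.635). INSIG2 fell in limma with the block (adjusted p = 0.0262) and on replicates 2 and 3 alone (log2 fold change -0.30, adjusted p = 0.0419). With each library's GC trend removed its log2 fold change was -0.13, and it did not pass in limma with the block (adjusted p = 0.188) or without it (adjusted p = 0.347). Its longest transcript has 35.4% GC.

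Within each library, INSIG1 was 2.83, 3.25 and 3.33 times INSIG2 in Vector replicates 1, 2 and 3 and 7.21, 9.78 and 10.3 times INSIG2 in oeCSGALNACT2 replicates 1, 2 and 3. Every oeCSGALNACT2 library thus had a higher ratio than every Vector library, with a mean of 9.09 ± 1.64 against 3.14 ± 0.269 (SD, n = 3 libraries). A two-sided exact permutation test on the log2 ratio gave p = 0.1. The mean ratio differed 2.90-fold between the groups. INSIG1 and INSIG2 differ in GC content (46.0% and 35.4%), and the part of the GC trend in this ratio was not tested. The ratio of INSIG1 to SCAP overlapped between the groups, at 0.761 to 2.61 in Vector and 1.67 to 5.03 in oeCSGALNACT2 libraries.

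Among the lipid-handling genes, TMEM97 followed INSIG1. TMEM97 (ENSG00000109084, chr17:28319095-28328685, plus strand) encodes the sigma-2 receptor, a membrane protein of the endoplasmic reticulum that binds the lysosomal cholesterol transporter NPC1. It had 7.13, 4.86 and 3.99 FPKM in Vector replicates 1, 2 and 3 and 13.7, 10.5 and 11.01 FPKM in oeCSGALNACT2 replicates 1, 2 and 3. The lowest oeCSGALNACT2 library was above the highest Vector library (p = 0.1 in the exact permutation test of mean FPKM). The smallest of these values, 3.99 FPKM, rests on 205 reads and has a 95% exact Poisson interval of 3.46 to 4.58 FPKM, which covers counting error only. Means were 5.33 ± 1.62 and 11.7 ± 1.73 FPKM (SD, n = 3 libraries), and between libraries of the same number the ratio was 1.92, 2.16 and 2.76. By limma the log2 fold change of TMEM97 was 1.03 (SE 0.23, adjusted p = 0.0893), with an interval of the fold of 1.39 to 2.99, and edgeR gave an adjusted p of 0.0996. TMEM97 rose in limma with the block (adjusted p = 0.00184), in limma on replicates 2 and 3 alone (adjusted p = 0.00179), in DESeq2 (adjusted p = 0.0189) and in limma with the GC trend removed (adjusted p = 0.00503). Its log2 fold change was higher than that of 98.0% of the tested genes. TMEM97 shares 361 bases with IFT20 on the other strand, which had 2.70 to 3.59 FPKM. The ratio of INSIG1 to TMEM97 within a library was 2.87 to 3.60 in Vector and 2.97 to 3.29 in oeCSGALNACT2 cells, and these ranges overlapped.

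STARD4 (ENSG00000164211, chr5:111496033-111512590, minus strand) encodes a soluble protein that carries cholesterol between membranes. It had 32.3, 17.4 and 14.99 FPKM in Vector replicates 1, 2 and 3 and 35.6, 15.9 and 15.5 FPKM in oeCSGALNACT2 replicates 1, 2 and 3. Replicate 1 was about the same distance above the others in both groups, and the libraries of replicates 2 and 3 of both groups lay within 14.99 to 17.4 FPKM. Its log2 fold change came to 0.02 (SE 0.42, limma adjusted p = 0.990), and the interval of the fold was 0.506 to 2.03, or 0.893 to 1.15 with the block. With the GC trend removed the log2 fold change was 0.21, and the adjusted p from limma was 0.285 without and 0.0707 with the block.

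LPIN1 (ENSG00000134324, chr2:11677595-11827409, plus strand) encodes lipin 1, a phosphatidate phosphatase of glycerolipid synthesis that also acts in the nucleus on SREBP-driven transcription. It had 10.1, 10.4 and 10.1 FPKM in Vector replicates 1, 2 and 3 and 12.02, 11.2 and 10.1 FPKM in oeCSGALNACT2 replicates 1, 2 and 3. It was the steadiest of the 8 genes in Vector cells, at 10.2 ± 0.156 FPKM (SD, n = 3 libraries). Its log2 fold change came to 0.11 (SE 0.15, limma adjusted p = 0.761), and the interval of the fold, 0.847 to 1.38, was the narrowest of the 8 without a block.

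**Figure D3:**
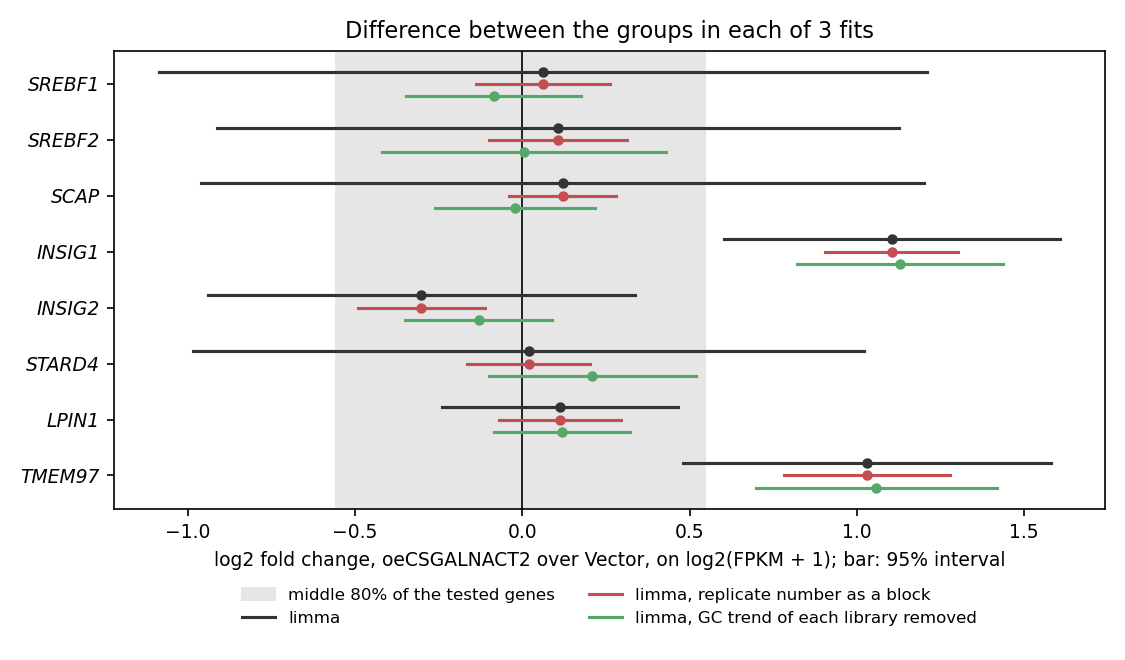
Log2 fold change of oeCSGALNACT2 over Vector cells on log2(FPKM + 1) with its 95% interval (bars) for each of the 8 genes, from limma, from limma with the replicate number as a block and from limma after removal of each library's GC trend. The grey band, -0.56 to 0.55, holds the middle 80% of the tested genes in limma, and INSIG1 and TMEM97 lie to its right in all 3 fits.

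**Figure D4:**
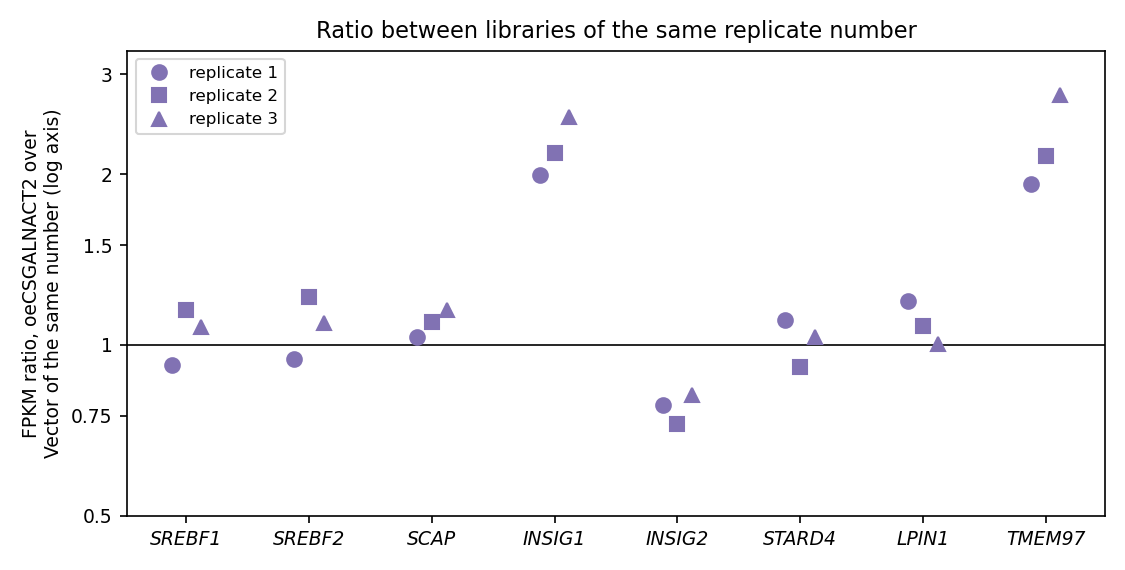
Ratio of FPKM (log axis) between the oeCSGALNACT2 and the Vector library of the same replicate number, 1 symbol per number, for each of the 8 genes. All 3 ratios lie between 1.92 and 2.76 for INSIG1 and TMEM97 and between 0.725 and 0.817 for INSIG2.

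In Vector cells the mean levels ran from SREBF2 through STARD4, INSIG1, SCAP, SREBF1, LPIN1 and TMEM97 to INSIG2, and of these neighbours only LPIN1 and TMEM97 had ranges that did not overlap. In oeCSGALNACT2 cells the order was SREBF2, INSIG1, STARD4, SCAP, TMEM97, SREBF1, LPIN1 and INSIG2, and only LPIN1 and INSIG2 did not overlap. These orders of the means do not hold in every library. In Vector replicate 1 SREBF2 had 20.04 FPKM, below STARD4 (32.3) and INSIG1 (20.5). In oeCSGALNACT2 replicate 1 it had 18.9 FPKM, below STARD4 (35.6) and INSIG1 (40.8). INSIG1 stood in these orders at a level above 77.4% of the tested genes in Vector and above 90.9% in oeCSGALNACT2 cells. TMEM97 stood above 44.1% of the tested genes in Vector and above 68.4% in oeCSGALNACT2 cells.

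Over the 6 libraries the 8 genes fell into patterns that can be described by the correlation of log2(FPKM + 1), with no test, since all points share the libraries and replicate 1 weighs in every value. Pearson's r was 0.986 between INSIG1 and TMEM97 and 0.997 between SREBF1 and SREBF2, whereas SREBF1 and STARD4, at the 2 ends of GC content, had an r of -0.995. Of the 11478 other tested genes, the pair most like INSIG1 was TSPYL1 (r = 0.999) and FAM81A (r = 0.997), and the pair most like TMEM97 was TENT5A (r = 0.999) and TRAK2 (r = 0.997). The closest were INPPL1 and FOXP4 for SREBF1, SRC and GCN1 for SREBF2, and DEAF1 and ANXA11 for SCAP, and each of these 6 had an r of 0.999 or above to 3 decimals. For INSIG2 they were UGCG and PPP3CB (r = 0.999 for both) and for STARD4 C1GALT1C1 and OIP5-AS1 (r = 0.999 for both). LPIN1 had no neighbour as close, with MIR1206 at 0.988 and ZNF552 at 0.985.

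The bases before the start of INSIG1 and TMEM97, the 2 genes that were higher together, are shown with those of STARD4 and SREBF2, because these 4 are the ones of the 8 whose RefSeq promoter windows (GRCh38.p14, 250 bases before and 50 after a start, 11 windows for the 8 genes) hold the motif CCAAT. Of the 11 windows 4 held it, near the 34.6% of all 35116 windows that held it at least once. This motif is the site of NF-Y, a factor known to work beside SREBPs at sterol-regulated promoters. Only the bases before the earliest annotated start are printed, 5′ to 3′ on the strand of the gene, and capitals mark CCAAT, which reads ATTGG where it lies on the other strand, and in SREBF2 also a match to TCACNCCAC, a consensus of the sterol regulatory element, where N is any base. They lie at chr7:155297628-155297775 for INSIG1, chr17:28318950-28319094 for TMEM97, chr5:111512591-111512785 for STARD4 and chr22:41832855-41833078 for SREBF2.
INSIG1: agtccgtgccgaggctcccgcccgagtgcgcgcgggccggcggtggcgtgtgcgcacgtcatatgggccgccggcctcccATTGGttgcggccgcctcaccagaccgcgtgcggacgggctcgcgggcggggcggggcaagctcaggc
TMEM97: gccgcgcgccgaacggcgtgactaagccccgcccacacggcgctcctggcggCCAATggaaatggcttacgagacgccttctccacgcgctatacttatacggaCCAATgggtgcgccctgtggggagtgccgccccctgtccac
STARD4: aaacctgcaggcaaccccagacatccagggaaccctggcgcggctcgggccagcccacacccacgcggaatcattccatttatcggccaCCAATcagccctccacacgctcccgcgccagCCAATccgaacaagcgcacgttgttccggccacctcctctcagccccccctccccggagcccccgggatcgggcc
SREBF2: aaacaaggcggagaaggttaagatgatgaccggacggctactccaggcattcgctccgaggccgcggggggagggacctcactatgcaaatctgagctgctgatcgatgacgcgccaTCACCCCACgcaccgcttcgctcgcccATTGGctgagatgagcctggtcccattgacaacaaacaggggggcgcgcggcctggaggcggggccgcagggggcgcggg

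In these stretches the first base of the CCAAT lay 68 bases before the start of INSIG1, 93 and 41 bases before that of TMEM97, 106 and 75 bases before that of STARD4 and 80 bases before that of SREBF2. The whole window of TMEM97 held CCAAT 3 times, on either strand, which 3.26% of the 35116 windows of this length did, whereas 34.6% held it at least once. The motif TCACNCCAC was searched on both strands and overlapped no CCAAT here. It was found in SREBF2 alone among the 8 genes, 107 bases before its start, and in 1.13% of all windows. Of the 17 listed genes of cholesterol synthesis that have a window, classical targets of SREBP2, 0 held TCACNCCAC and 14 held CCAAT in any of their windows. These are counts of genes, whereas the shares above are of single windows. The lack of a match to TCACNCCAC therefore does not show that a gene lacks a sterol regulatory element. A match is a description of letters, and STARD4 and SREBF2, which hold CCAAT as well, did not pass the threshold in any fit that was run. No CCAAT was found in the windows of SREBF1, SCAP, INSIG2 and LPIN1. Also searched were GGGCGG, found in a window of all 8 genes (45% of all windows), and CACGTG, found in INSIG1 and SCAP (7.26% of all windows).

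Genes that act with the 8 were counted in 8 lists, and the number of tested genes is given below with each list. In the lists 5 genes passed in limma (1.35% of all tested genes did). Without Vector replicate 2 or 3, or oeCSGALNACT2 replicate 2 or 3, 0 genes of the lists passed, where 0.0436% to 0.0697% of all tested genes did. Without Vector replicate 1, 2 genes of the lists passed, where 0.714% of all tested genes did. In the list of SREBP processing and turnover, 0 of 14 tested genes passed in limma, with a median log2 fold change of -0.17, and with the block on replicate number 4 rose and 7 fell, where 21.2% of all tested genes rose and 22.5% fell. The protease gene MBTPS2 had a log2 fold change of -0.69 (adjusted p = 0.140 from limma) and fell with the block (adjusted p = 0.0101). ERLIN2, whose product takes part in protein turnover at the endoplasmic reticulum, had -0.49 (adjusted p = 0.157 from limma) and fell with the block (adjusted p = 0.00467), and C12orf49, a cofactor of SREBP cleavage, had 0.40 (adjusted p = 0.237 from limma) and rose with the block (adjusted p = 0.00794). In the limma fit of all libraries without a block, these 3 genes thus missed the threshold.

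Of the genes of cholesterol synthesis, the classical targets of SREBP2, most had positive fold changes, with medians close to the values of INSIG1 and TMEM97. In the mevalonate arm 1 of 9 tested genes rose in limma and 8 with the block (21.2% of all tested genes did), all 9 fold changes were positive, and the median log2 fold change was 0.96. HMGCS1, the synthase of HMG-CoA, rose from a range of 3.29 to 5.86 FPKM to one of 13.8 to 26.9 FPKM (log2 fold change 1.87, adjusted p = 0.0489 from limma). ACAT2, a thiolase at the start of the arm, had 1.00 (adjusted p = 0.0693 from limma). In the sterol arm 2 of 12 tested genes rose in limma and 10 with the block (again beside 21.2%), 11 fold changes were positive, and the median was 0.93. SQLE, the squalene epoxidase, had a log2 fold change of 1.498 (adjusted p = 0.0236 from limma) and NSDHL, a sterol dehydrogenase, 1.24 (adjusted p = 0.0476 from limma), while EBP, a sterol isomerase of the protein family of TMEM97, had 0.92 (adjusted p = 0.0621 from limma). Neither SREBF2 nor SREBF1, the genes of the factors known to drive these enzymes, passed the threshold, and cleavage of the SREBP proteins was not measured.

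In fatty acid synthesis and desaturation, 1 of 11 tested genes rose in limma and 6 with the block, beside 21.2% of all tested genes (median log2 fold change 0.29). SCD, the stearoyl-CoA desaturase, had a log2 fold change of 1.23 (adjusted p = 0.0236 from limma), FADS2 1.09 (adjusted p = 0.188 from limma) and FASN 1.24 (SE 0.72, adjusted p = 0.449 from limma). In intracellular sterol transport and lipoprotein receptors, 0 of 16 passed in limma, and with the block 6 rose and 6 fell (median 0.04), beside 21.2% and 22.5% of all tested genes. NPC1, the partner of TMEM97, had -1.04 (adjusted p = 0.0924 from limma) and the lipoprotein receptor gene VLDLR -0.92 (adjusted p = 0.133 from limma). NPC1 and TMEM97 thus had fold changes of opposite sign.

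Among lipins and glycerolipid synthesis, the list around LPIN1, 0 of 8 tested genes passed in limma and 2 rose with the block, near the 21.2% of all tested genes that did (median -0.04). GPAM, the mitochondrial acyltransferase, had 0.46 (adjusted p = 0.212 from limma), LPIN3 0.62 (adjusted p = 0.398 from limma) and CTDNEP1, the phosphatase that acts on lipin 1, 0.32 (adjusted p = 0.668 from limma). Of the relatives and partners of TMEM97, 0 of 3 tested genes passed in limma and 1 rose with the block, as 21.2% of all tested genes did (median 0.13), with PGRMC1 at 0.33 and EBPL at 0.09 (adjusted p = 0.596 and 0.937 from limma). The difference in TMEM97 was thus larger by value than in PGRMC1 and EBPL, which was not tested. Of liver X receptors and sterol export, 1 of 5 fell in limma and 2 with the block, where 22.5% of all tested genes fell (median -0.11). ABCG1, a sterol exporter, had a log2 fold change of -1.85 (adjusted p = 0.0236 from limma), the exporter ABCA1 -0.55 (adjusted p = 0.152 from limma) and APOE -0.11 (adjusted p = 0.832 from limma).

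**Figure D5:**
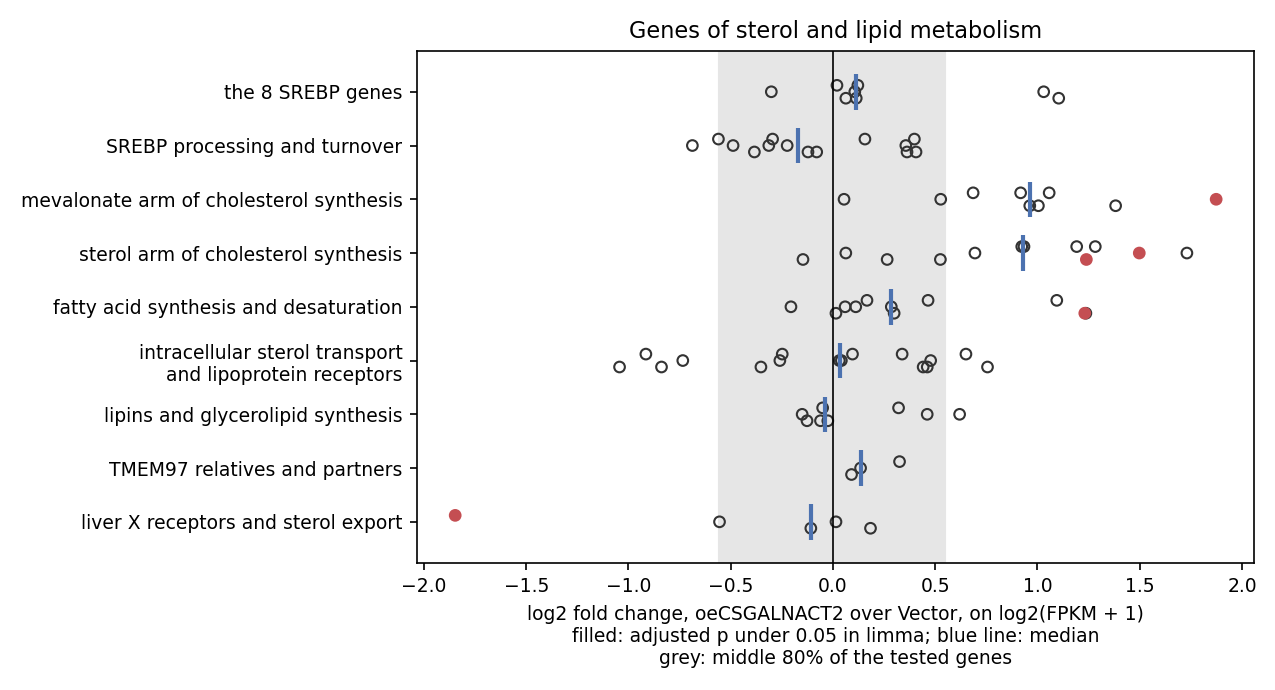
Log2 fold change of oeCSGALNACT2 over Vector cells on log2(FPKM + 1) for each tested gene of the 8 lists and for the 8 SREBP genes, 1 circle per gene, filled red at an adjusted p under 0.05 in limma, with a blue line at the median of each list. The medians of the mevalonate and sterol arms, 0.96 and 0.93, lie beyond the grey band of -0.56 to 0.55 that holds the middle 80% of the tested genes, and so do INSIG1 and TMEM97 of the 8 genes.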

How the data were processed

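RNA from 6 HEY libraries was sequenced by a commercial provider after preparation with a SMARTER mRNA kit, per the labels. The authors deposited a table of read counts per gene, not normalized, and a table of FPKM values, reads scaled by gene length and library size. A further table, which repeats the FPKM values and adds the authors' mean of each group, was not used. Which aligner, counting tool and strand setting were used is not given in the sources used here. As build, mm10 (mouse) is named in the submitters' notes on processing, but IDs and positions of all 58735 genes match human GENCODE 29 on GRCh38, which gave the gene coordinates. Only 1310 genes of the count table were at hand (59.0% to 59.9% of the reads of a library), so FPKM values were the main source. Converted back to reads, 100% of the nonzero FPKM values were whole to within 0.01 read, and the 1310 genes with counts matched exactly.

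Groups and replicate numbers came from the sample descriptions. Vector and oeCSGALNACT2 were compared with limma 3.58.1 (R 4.3.3) on log2(FPKM + 1), the log2 values computed from the deposited FPKM, for the 11479 genes with a mean of at least 1 FPKM, with a mean-variance trend and a threshold of 0.05 on the Benjamini-Hochberg adjusted p over all tested genes. Fold changes and intervals on this scale understate changes at low FPKM. The recovered reads were also tested with edgeR 4.0.16 (quasi-likelihood) and DESeq2 1.42.0. The other alternatives were a pseudocount of 0.1, all genes above 0 or with a mean of at least 5 FPKM, quantile normalization, the replicate number as a block, each library left out in turn, and replicates 2 and 3 alone. Removal of each library's GC trend (lowess on the GC of the longest transcript, span 0.3), with and without the block, was added after seeing the data. The fits were checked on simulated data without a replicate effect or a GC trend, so the check does not show how they handle those.

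Deviations from the group means correlated across genes between libraries of the same number (Pearson's r 0.810, 0.631 and 0.686 for numbers 1, 2 and 3). The numbers were treated as pairs only in the fits with the replicate block and in the ratios between libraries of the same number. All other fits and the permutation tests took no account of the number. The labels state no such pairing, and replicates 2 and 3 also correlated across numbers (0.590 and 0.682), so the data do not show that these pair by number.

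The 8 genes, the 8 lists and the alternatives were chosen with earlier results of these data known. All 8 genes were named, up to 3 genes with the smallest limma p in each list (some genes of this rule are not reported here), and for each of the 8 the 2 tested genes with the highest correlation. Promoter sequences are from RefSeq on GRCh38.p14, matched by symbol for 8 of 8 genes.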

Additional observations from a re-analysis of the deposited data

How the results depend on the processing

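Of the 8 genes, 0 passed in limma, and the same count was found with a pseudocount of 0.1, either other filter on low values, quantile normalization, edgeR and each library left out. It was 3 with the replicate block, with replicates 2 and 3 alone and in edgeR with the replicate block, and 2 in DESeq2 and with the GC trend removed, with or without the replicate block. Over all tested genes 155 were called in limma, 31 of all genes above 0, 5017 with the replicate block, 4800 with replicates 2 and 3 alone, 6188 in edgeR with the replicate block, 731 in DESeq2, 2768 with the GC trend removed and 4890 with that and the replicate block. The 8 lists together had 5 called genes in limma, 0 among all genes above 0, 52 with the replicate block, 49 with replicates 2 and 3 alone, 56 in edgeR with the replicate block, 19 in DESeq2, 40 with the GC trend removed and 54 with that and the replicate block. With 1 library left out, 5 to 159 genes were called in all and 0 to 5 in the lists, with 82 and 2 without Vector replicate 1 and 5 to 8 and 0 without replicate 2 or 3 of either group.

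The log2 fold changes of INSIG1, INSIG2, TMEM97 and LPIN1 kept their sign in every alternative that gave a value, and INSIG2 was not tested at a mean of at least 5 FPKM. Leaving out 1 library, that of INSIG1 ranged from 1.01 to 1.27 (limma adjusted p from 0.0576 to 0.313) and that of TMEM97 from 0.87 to 1.23 (0.0653 to 0.352). The small differences of the other 4 genes changed sign. Without 1 library SREBF1 ranged from -0.30 to 0.51, SREBF2 from -0.20 to 0.51, SCAP from -0.24 to 0.52 and STARD4 from -0.36 to 0.34. For SREBF1, SREBF2 and SCAP the sign was negative when Vector replicate 1 or either of replicates 2 and 3 of oeCSGALNACT2 was left out, and for STARD4 when oeCSGALNACT2 replicate 1 or either of replicates 2 and 3 of Vector was. STARD4 was at -0.040 with replicates 2 and 3 alone. With the GC trend removed, SREBF1 was at -0.086 and SCAP at -0.022, with or without the replicate block. The cause of these changes was not tested. With 3 libraries per group that differ as replicate 1 does, the limma intervals without a block ran from 0.472-fold to 2.31-fold for SREBF1 and from 0.506-fold to 2.03-fold for STARD4. That fit thus does not settle smaller differences for them. With the replicate block the intervals ran from 0.909-fold to 1.20-fold for SREBF1 and from 0.893-fold to 1.15-fold for STARD4. The smallest difference that could be detected was not tested.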
